A study of Mus musculus with 16 samples.

Results

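RNA-seq of small intestinal crypts was compared between mice that lack Cul4b in the intestinal epithelium and their wild-type controls. The comparison takes 8 of the 16 libraries of the series, 4 from WT crypts (WT1 to WT4) and 4 from KO IEC crypts (KO1 to KO4, called KO from here on), as the genotype labels of the samples and the column names of the count table give them. All 52636 genes of the table belong to it, and 13427 of them had enough counts to be tested. KO mice carried pVillin-Cre and the floxed allele (pVillin-Cre; Cul4b fn/Y), and WT mice carried the same floxed allele without Cre (Cul4b fn/Y). Cre presence and loss of Cul4b therefore cannot be told apart between the groups. All mice were male by genotype and of the C57BL/6 strain, and most experiments of the study used animals of 8 to 16 weeks. The villin promoter drives Cre in epithelial cells of the whole villus and crypt, so other cells of the tissue keep the gene. Crypts were released with EDTA after the villi had been scraped off. Which animal each library came from is not in the labels, so p-values measure the spread between these samples.

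Cullin 4B is the scaffold of the CRL4B ubiquitin ligases, which join a DDB1 adaptor and a substrate receptor to a RING protein and mark proteins with ubiquitin. Crypts hold the stem cells, the Paneth cells beside them and dividing progenitors. As cells leave the crypt they stop dividing and take on enterocyte functions such as digestion at the brush border, nutrient transport, and fat and drug metabolism. Bulk libraries average over these cells, and a lower share of cells of a type cannot be told apart from less of an RNA per cell.

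The crypt libraries held 9311734 to 13479974 counted reads, at which 3 counts, taken as the floor, were worth 0.223 to 0.322 CPM (counts scaled to library size). They differed in mitochondrial ribosomal RNA, a difference that genotype does not define. Together mt-Rnr1 and mt-Rnr2 took 18.9 to 25.2 CPM in WT1, KO1, KO2 and KO3 (the low class), 834 CPM in WT4 and 1078 CPM in KO4 (the middle class), and 2840 and 2873 CPM in WT2 and WT3 (the high class). Part of the differences are therefore also given as KO minus WT in log2 CPM within classes. These are the low class (3 KO libraries against WT1) and the middle class (KO4 against WT4), where no replicate check is possible. Where no class values are given, a difference can be smaller within a class. The 10 stem cell markers were all detected and summed to 2251 to 3318 CPM in WT and 1468 to 2327 CPM in KO, with lower estimates for all 10 in KO and 3 of them called. Markers of fibroblasts and smooth muscle summed to 16.4 to 20.7 CPM in WT and 10.8 to 12.8 CPM in KO, and those of red blood cells to at most 3.58 CPM. The 13 markers of mature enterocytes summed to 7043, 3655, 2472 and 11135 CPM in WT1 to WT4 and to 10311, 16112, 20904 and 20724 CPM in KO1 to KO4. All 13 had higher estimates in KO, with a median log2 fold change of 1.56. None was called by edgeR, 11 had an unadjusted p under 0.05 and 8 were called by DESeq2. Paneth markers were at 2125 to 19633 CPM in KO with the lowest value in KO3, and at 11512 to 22314 CPM in WT. KO4 stood apart with tuft cell markers at 352 CPM, where the other 7 libraries had 47.3 to 86.3 CPM. Markers of T and natural killer cells summed to 28.8 to 151 CPM in WT and 70.9 to 501 CPM in KO, highest in KO3.

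Cul4b (ENSMUSG00000031095) spans chrX:38533274-38576196 on GRCm38. Its mRNA was at 31.7, 33.2, 38.3 and 32.3 CPM in WT1 to WT4 and 1.69, 0.993, 0.848 and 2.21 CPM in KO1 to KO4. On the log2 scale it fell by 4.56 with a standard error of 0.25 (edgeR, adjusted p = 0.000169), with -4.60 in the low class and -3.77 in the middle class. No KO library came near a WT library. An exact permutation test, two-sided, gave p = 0.0286, which is the lower limit for 4 libraries against 4. Cul4b was called under every setting that tested it, and a filter on 10 counts in every library left it out. The list of CRL4 subunits and receptors held 28 tested genes, of which 2 were called, near the share of all genes (6.96%). Besides Cul4b, Wdr77, a WD-repeat partner of the arginine methyltransferase PRMT5, was called, at a log2 fold change of -0.58 (adjusted p = 0.0473, edgeR). In the fit with enterocyte markers as a covariate, given below, Wdr77 was at -0.27.

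A gene is written as called at an adjusted p under 0.05 (edgeR, Benjamini-Hochberg over all tested genes) and as changed when it also differed at least 2-fold. In KO crypts 240 genes were changed (1.79% of those tested), 194 higher (1.44%) and 46 lower (0.343%). Called genes numbered 934 (6.96%), 577 higher (4.3%) and 357 lower (2.66%), and these shares are the background for each count of called list members. For 2348 genes (17.5%) no KO library overlapped a WT library, 1168 with KO above (8.7%) and 1180 with KO below (8.79%). Among the 240 changed genes, 220 did not overlap. In 239 of them all 3 KO libraries of the low class lay on the called side of WT1 and KO4 lay on the same side of WT4, against 43.0% of all tested genes. The differences within classes were smaller than the overall one, with a median ratio of 0.874 in the low class and 0.672 in the middle class over the changed genes. At least 50% of the overall difference was kept in both classes by 187 of the 240, against 35.5% of all tested genes. The changed genes were selected on these same 8 libraries, so high counts among them follow in part from that selection. The contrast with all tested genes is therefore not independent support. An unadjusted p under 0.05 was found for 31.9% of all tested genes.

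The count of changed genes depended on single libraries. Without WT1, WT2, WT3, KO2 or KO3 it was 20, 3, 11, 2 and 2, without KO4 it was 164, and without WT4 or KO1 it was 643 and 611. Taking the class as a covariate left 2 changed genes, and dropping the high class left 1. DESeq2's Wald test gave 504. Scaling by library size alone gave 135 higher and 57 lower genes, so that 70.3% of the changed genes were higher against 80.8% with TMM scaling. All 240 genes kept their direction in each of these settings, and 236 of the 240 still had an unadjusted p under 0.05 with the class as a covariate. Counts of called genes below are those of the fit with all 8 libraries, and they move with the total where a library is left out.

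**Figure D1:**
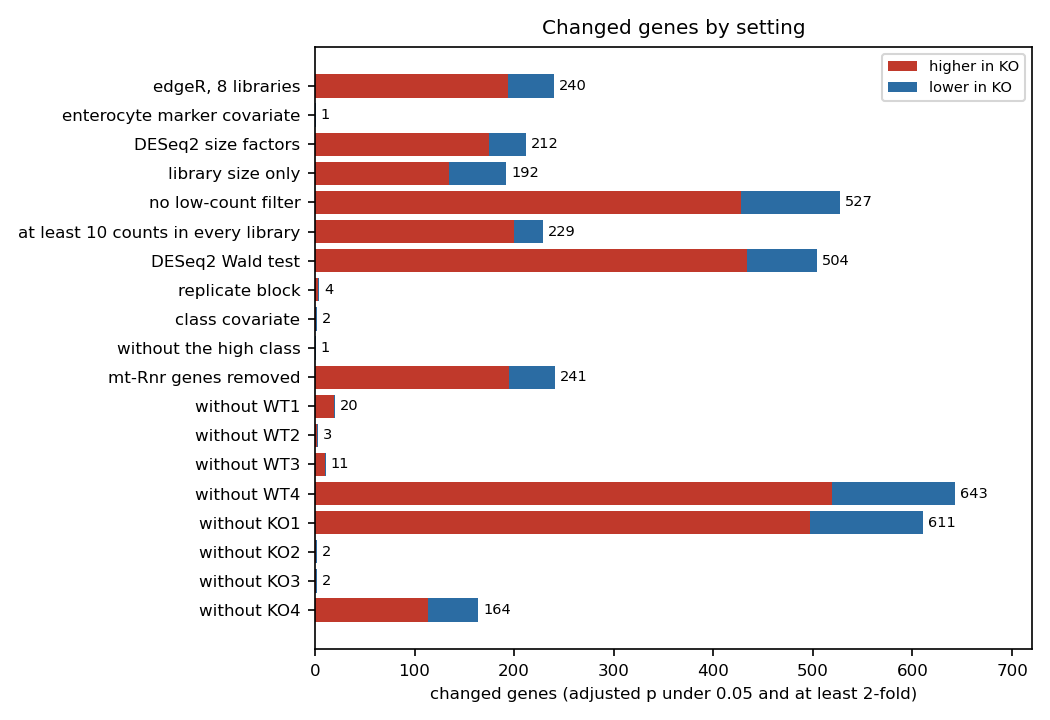
Number of changed genes (horizontal axis) under each setting (rows), split by direction, from 240 in the edgeR fit of all 8 libraries down to 1 without the high class or with the enterocyte marker covariate and up to 643 without WT4. Red bars are genes higher in KO and blue bars genes lower in KO.

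**Figure D2:**
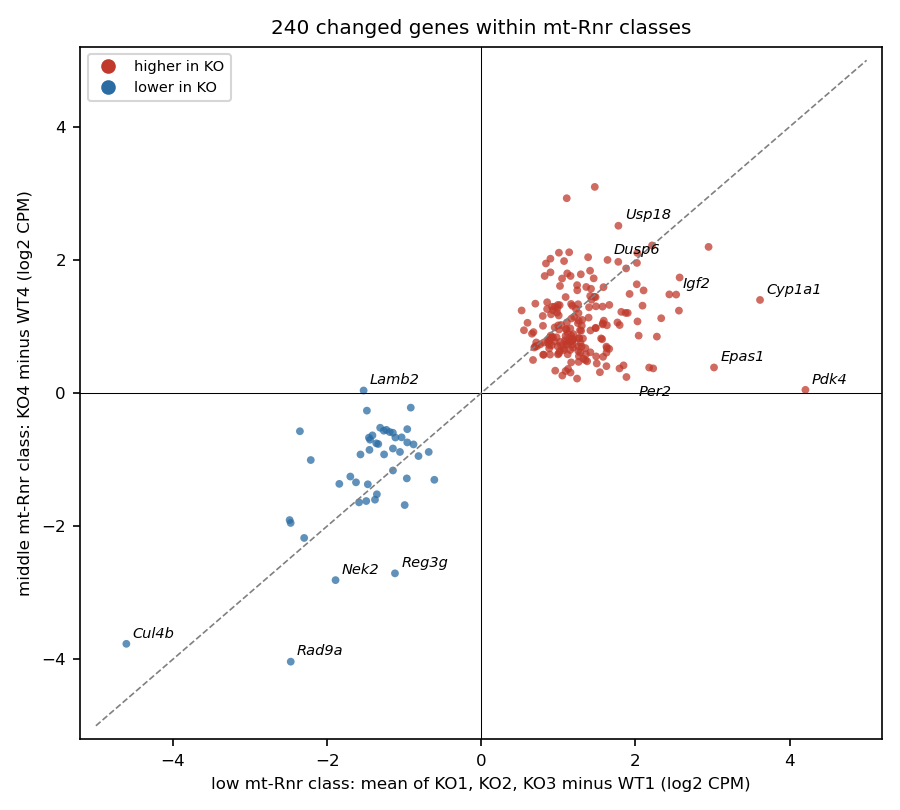
KO minus WT difference in log2 CPM of the 240 changed genes within the low mt-Rnr class (horizontal axis) and within the middle class (vertical axis). Red points are genes higher in KO, blue points genes lower in KO, and the dashed line marks equal differences. Pdk4, Epas1 and Per2 lie near 0 on the vertical axis, and Lamb2 is the 1 changed gene whose differences have opposite signs.

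The mature enterocyte markers moved with genotype, so a fit with their mean log2 CPM as a covariate, chosen after the data were seen, is set beside the results. That mean ran from 6.65 to 9.06 in WT and from 8.70 to 10.01 in KO. All 240 changed genes kept their direction in it, 94 stayed at 2-fold or more and 143 had an unadjusted p under 0.05. Since the covariate and genotype overlap, part of a genotype difference is removed with it. The part of enterocyte content in the results was not tested otherwise.

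Genes of digestion and transport at the enterocyte surface had higher levels in KO. All 32 tested genes of the brush border list had higher estimates in KO, with a median log2 fold change of 1.09, 0.80 in the low class and 0.65 in the middle class. Of them 7 were called higher, against 4.3% of all genes. Vil1, the actin bundler villin, was at 1188, 841, 688 and 1473 CPM in WT1 to WT4 and 1477, 2132, 2384 and 2398 CPM in KO1 to KO4. Pls1, the bundler plastin 1, was at 386, 301, 227 and 561 CPM in WT1 to WT4 and 591, 935, 1228 and 972 CPM in KO1 to KO4. Neither overlapped between genotypes, but WT4, the highest WT library, was close to KO1, the lowest KO library, and for Vil1 almost equal to it. Vil1 rose by 1.00 on the log2 scale (adjusted p = 0.0499, edgeR) and by 0.24 with the enterocyte covariate. The intermicrovillar adhesion protein Cdhr2 was at 398, 260.1, 221 and 478 CPM in WT1 to WT4 and 526, 777, 1231 and 967 CPM in KO1 to KO4, which is 1.37 ± 0.31 on the log2 scale (± standard error, adjusted p = 0.0448 by edgeR). Ace, the angiotensin-converting dipeptidase of the brush border, was between 52.3 and 277 CPM in WT and 415 to 917 CPM in KO, and rose by 1.93 on the log2 scale. Eps8, its relative Eps8l2 and Anks4b, which build or anchor microvilli, rose by 0.67, 1.09 and 0.76, and Clic5, which links the membrane to the actin core, by 1.62. With the enterocyte covariate the median of the list was 0.21, although 5 of its genes are themselves among the 13 markers.

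Among 245 tested solute carriers 22 were called higher, against 4.3% of all genes, and 1 lower, against 2.66%. The basic and cystine transporter subunit Slc3a1 was at 34.3, 29.8, 27.5 and 55.1 CPM in WT1 to WT4 and 60.04, 84.6, 96.3 and 96.1 CPM in KO1 to KO4, without overlap. Slc7a7, which exports basic amino acids on the basolateral side, rose by 1.00 on the log2 scale, the aromatic amino acid transporter Slc16a10 by 1.10, its family member Slc16a6 by 1.12 and Slc7a15 by 1.77. For Slc16a10 and Slc16a6 the middle class held little of this, at 0.33 and 0.22, against 1.09 and 1.24 in the low class. The creatine transporter Slc6a8 was at 209.8, 138, 117 and 224 CPM in WT1 to WT4 and 231, 326, 501 and 423 CPM in KO1 to KO4, and its differences in the classes, 0.68 and 0.92, were close to each other. Slc22a5, the carnitine transporter, rose by 0.67. Cubn, the receptor that takes up vitamin B12 bound to intrinsic factor, rose from 19.6, 9.62, 7.76 and 39.7 CPM in WT1 to WT4 to 73.04, 142, 95.5 and 86.8 CPM in KO1 to KO4. WT4 was again the WT library nearest to KO. In the list of sugar transporters, no gene was called by edgeR, while 9 of 15 had an unadjusted p under 0.05 and DESeq2 called 7, 6 of them higher. Its 2 most abundant members were Slc5a1, the sodium-glucose cotransporter, at a log2 fold change of 1.46 (adjusted p = 0.0522) and Slc2a2, the basolateral fructose and glucose carrier, at 2.26 (adjusted p = 0.0578).

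Fat handling had the same direction. All 18 tested genes for lipid absorption and lipoprotein assembly had higher estimates, at a median of 1.12 (0.71 and 0.64 in the classes). Of them 2 were called, both higher, against 4.3% of all genes. Apob, the structural protein of chylomicrons, was at 644, 563, 416 and 1316 CPM in WT1 to WT4 and 1554, 2823, 4262 and 2393 CPM in KO1 to KO4, which is 1.91 ± 0.40 on the log2 scale (adjusted p = 0.0413). The libraries did not overlap, yet WT4 at 1316 CPM was close to KO1 at 1554 CPM. Mttp, which loads lipid onto apolipoprotein B, rose by 1.27, with WT4 above KO1. For triglyceride synthesis and lipid droplets 5 of 19 genes were called, all higher, against 4.3% of all genes called higher. Dgat2, which adds the last acyl chain, was at 60.8, 31.01, 28.9 and 62.9 CPM in WT1 to WT4 and 99.2, 129.7, 205 and 110.1 CPM in KO1 to KO4. Agpat2, Agpat3, Lpin2 and the droplet coat Plin3 rose by 0.74, 0.59, 0.74 and 0.66. Acsl5, the acyl-CoA synthetase of enterocytes, rose by 1.13. In the fit with the enterocyte covariate the lipid absorption list had a median of 0.094, and 5 of its genes are among the markers.

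**Figure D3:**
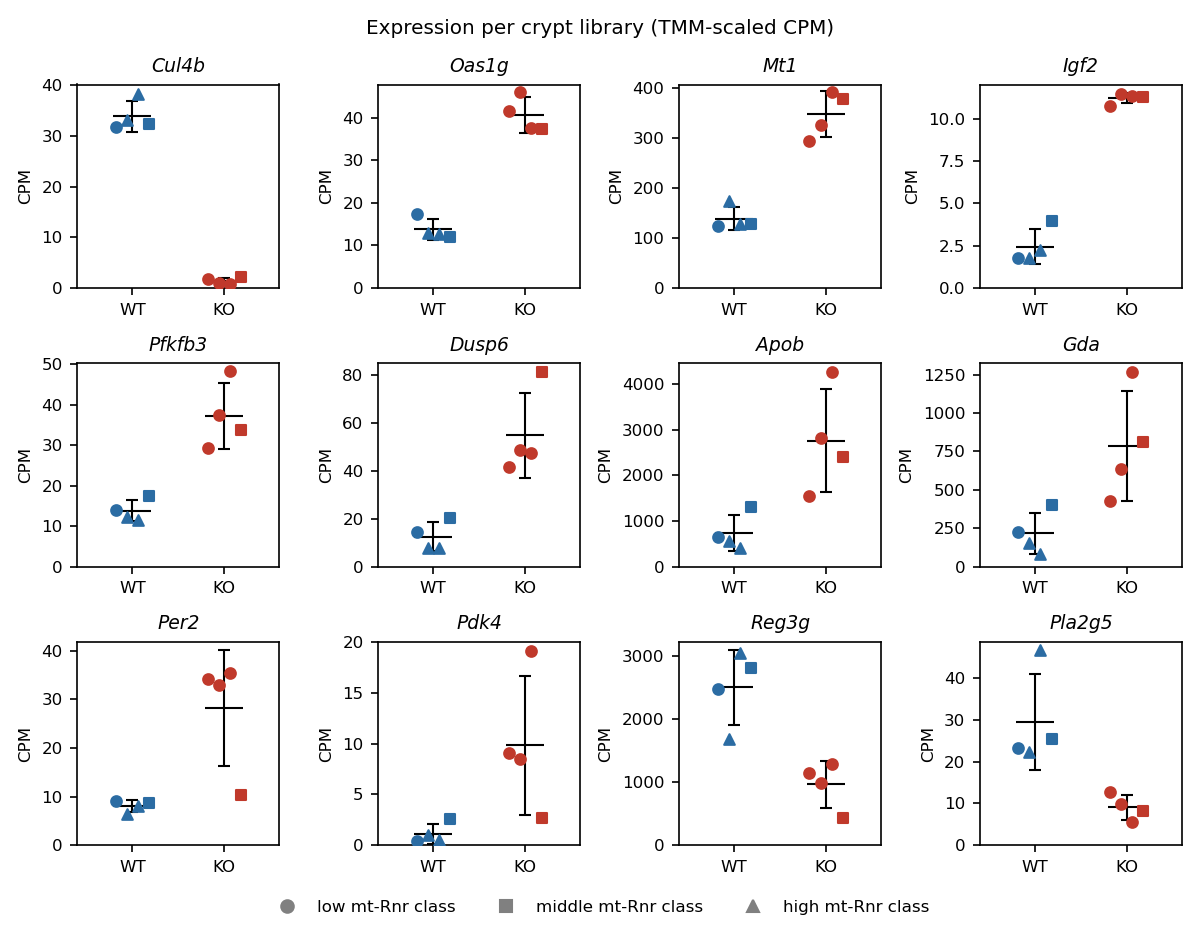
TMM-scaled CPM (vertical axes, starting at 0) of 12 genes in the 4 WT and 4 KO crypt libraries, with the mean and SD of each genotype (n = 4). The shape of a point gives the mt-Rnr class of its library. Oas1g, Mt1 and Igf2 show genotypes that lie well apart. Apob and Gda spread widely with WT4 the highest WT library, and in Per2 and Pdk4 KO4 sits with WT.

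Cholesterol synthesis went the other way, with 21 of 23 tested genes lower at a median of -0.24 (-0.38 in the low class and -0.048 in the middle class). Here 3 genes were called lower, against 2.66% of all genes, and 1 higher. The mevalonate pathway enzymes Mvd and Mvk fell by 0.72 and 0.63 on the log2 scale, and the lanosterol synthase Lss by 0.38. Mvd was at 70.1, 56.4, 53.01 and 42.5 CPM in WT1 to WT4 and 28.01, 34.4, 34.5 and 37.8 CPM in KO1 to KO4, and in the middle class its difference was only -0.17. The late enzyme Sc5d rose by 0.44. Fads1 and Fads2, the desaturases of polyunsaturated fatty acids, fell by 0.64 and 0.48. The cholesterol list moved from -0.24 to -0.35 with the enterocyte covariate.

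In carbohydrate and energy metabolism few genes of each list were called. Pfkfb3 makes the fructose bisphosphate that activates glycolysis. It was at 13.97, 12.3, 11.4 and 17.4 CPM in WT1 to WT4 and 29.3, 37.5, 48.4 and 33.6 CPM in KO1 to KO4, without overlap (1.43 ± 0.19 on the log2 scale, adjusted p = 0.0226), and at 1.42 and 0.94 in the classes. Its relative Pfkfb2 rose by 0.78. Pck1, the cytosolic enzyme of gluconeogenesis, rose from 7.97, 9.33, 5.04 and 13.5 CPM in WT1 to WT4 to 24.7, 36.04, 95.8 and 38.1 CPM in KO1 to KO4, whereas its mitochondrial counterpart Pck2 fell by 0.59. Pdk4, the kinase that shuts pyruvate dehydrogenase, was at 0.448, 1.04, 0.480 and 2.57 CPM in WT1 to WT4 and 9.09, 8.47, 19.1 and 2.67 CPM in KO1 to KO4. KO4 lay beside WT4, and the difference of 4.21 in the low class was 0.048 in the middle class. In the citric acid cycle list 13 of 19 estimates were higher, at a median of 0.17. Its 1 called gene, Idh2, went the other way and fell by 0.37. Pgls of the pentose phosphate pathway fell by 0.65, and neither gene overlapped between genotypes. For the nuclear-encoded respiratory chain no gene of 52 was called by edgeR and 1 by DESeq2, 6 had an unadjusted p under 0.05, and the median was -0.038. Ppargc1a, a coactivator of mitochondrial genes, rose by 1.15, with WT4 above KO1.

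Enzymes that break down nucleotides had 3 called genes of 17, all higher, against 4.3% of all genes. Gda, the guanine deaminase of enterocytes, was at 226, 154, 84.4 and 399.8 CPM in WT1 to WT4 and 425, 637, 1267 and 809.9 CPM in KO1 to KO4 (1.86 ± 0.47 on the log2 scale, adjusted p = 0.0497). KO1 was the lowest KO library and lay just above WT4. Entpd7 and Entpd5, which remove phosphates from nucleotides in organelles, rose by 1.14 and 1.17. Nucleotide synthesis had lower estimates for 24 of 29 genes and 2 calls, both lower, near the share of all genes (6.96% called, 2.66% lower). Its median of -0.24 was 0.026 with the enterocyte covariate, where 19 of 29 estimates were higher. Impdh2, the first step toward GTP, was at 181, 176, 189 and 134 CPM in WT1 to WT4 and 129, 107, 83.1 and 89.4 CPM in KO1 to KO4, and the thymidine kinase Tk1 fell by 0.59. In one-carbon metabolism 18 of 21 estimates were lower, at a median of -0.35 (-0.04 with the covariate), and the serine phosphatase Psph fell by 0.72. Azin1, an activator of polyamine synthesis, rose by 0.50. In the list of arginine, proline, glutamine and polyamine metabolism 17 of 25 estimates were lower, at a median of -0.23. There 2 genes were called higher (4.3% of all genes) and 1 lower (2.66%). Gpt, the alanine aminotransferase, rose by 1.38 and Aldh4a1, a step of proline breakdown, by 1.41.

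Drug and bile acid genes mostly had higher estimates as well. Of 33 tested genes for drug oxidation and conjugation 29 had higher estimates, at a median of 0.92 (0.94 and 0.36 in the classes). Of the 33 genes 2 were called, both higher, near the share of all genes (6.96% called, 4.3% higher). Cyp1a1, the aryl hydrocarbon receptor target that oxidises many xenobiotics, was at 2.06, 0.660, 0.160 and 6.51 CPM in WT1 to WT4 and 57.6, 16.3, 21.6 and 17.5 CPM in KO1 to KO4. KO1 was far above the other KO libraries, WT4 was above the other WT libraries, and WT3 was under the floor of 3 counts. The log2 fold change of 3.56 was therefore uncertain, with a standard error of 0.80. Tiparp, a second target of that receptor, was at 19.8, 21.9, 22.9 and 24.1 CPM in WT1 to WT4 and 35.2, 35.9, 34.8 and 33.00 CPM in KO1 to KO4 and rose by 0.65, with all libraries of a genotype close together. The flavin monooxygenase Fmo5 rose by 1.57, Cyp27a1 of bile acid synthesis by 0.93, and the nuclear receptor Nr1i2 (PXR) by 0.38, while Cyp39a1, an oxysterol hydroxylase, fell by 0.73. For retinoids no gene of 13 was called by edgeR, 1 was called by DESeq2 and 6 had an unadjusted p under 0.05. Its most abundant members Rbp2 and Adh1 were at log2 fold changes of 1.72 and 1.32 (adjusted p = 0.0658 and 0.117). The drug list went to a median of 0.00064 with the enterocyte covariate.

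Metal handling held one of the steadiest differences. Mt1 encodes metallothionein 1, which binds zinc and copper and is induced by metals and glucocorticoids. It was at 125, 174, 129 and 128 CPM in WT1 to WT4 and 294, 327, 392.1 and 379 CPM in KO1 to KO4. The lowest KO library was well above the highest WT library (1.33 ± 0.15 on the log2 scale, adjusted p = 0.0182), with 1.42 and 1.57 in the classes and 1.28 with the enterocyte covariate. Leaving out any one library kept it between 1.28 and 1.45. The copper importer Slc31a1 and the copper exporter Atp7a rose by 0.68 and 0.65, and the copper-dependent iron oxidase Heph by 1.11. The Mt1 promoter, from 250 bases before to 50 after the gene start, is shown from RefSeq (GRCm38.p6, chr8:94178839-94179138, plus strand) because it holds a cluster of matches to the core of the metal response element. Capitals mark the letters TGCNCNC, searched on both strands.

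Mt1: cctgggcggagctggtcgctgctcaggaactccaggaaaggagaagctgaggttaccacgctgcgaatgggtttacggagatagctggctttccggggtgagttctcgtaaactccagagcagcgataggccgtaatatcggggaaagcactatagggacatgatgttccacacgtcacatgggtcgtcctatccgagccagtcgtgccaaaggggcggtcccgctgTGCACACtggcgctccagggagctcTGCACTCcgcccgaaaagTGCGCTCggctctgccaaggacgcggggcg

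There were 3 matches, all near the gene start, a number that 6.95% of 27025 promoters reach, while 50.4% hold at least 1. These are letter matches and not measured binding.

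Interferon-stimulated genes were the list with the most calls. They encode antiviral proteins that cells make in response to interferon. Of 59 tested genes 33 were called, all higher, against 4.3% of all genes. The median log2 fold change was 1.07, 0.99 in the low class and 0.95 in the middle class. With the enterocyte covariate it was 0.94. Oas1g, an oligoadenylate synthetase of the family that senses double-stranded RNA, was at 17.5, 12.9, 12.7 and 11.98 CPM in WT1 to WT4 and 41.6, 46.04, 37.5 and 37.2 CPM in KO1 to KO4 (1.56 ± 0.14 on the log2 scale, adjusted p = 0.00709). Samd9l, a restriction factor of poxviruses, was at 27.1, 22.5, 19.7 and 32.2 CPM in WT1 to WT4 and 64.7, 98.9, 100.2 and 80.98 CPM in KO1 to KO4. Usp18, which removes ISG15 and damps interferon signalling, was at 4.92, 5.18, 1.92 and 3.06 CPM in WT1 to WT4 and 15.2, 20.1, 17.1 and 18.3 CPM in KO1 to KO4. In all 3 genes the lowest KO library was above the highest WT library. Oasl2, Ddx60 and Ifi27 rose by 1.75, 2.22 and 1.24. The RNA sensor Tlr3 rose by 0.66, and the chemokine Cxcl11 by 1.89, with 0.754 to 1.53 CPM in WT and 2.11 to 5.70 CPM in KO. The ADP-ribosyltransferases Parp9 and Parp14 and the TRIM protein Trim30a, all of the list, rose by 0.77, 1.32 and 2.79. Outside the list, Parp12 rose by 1.01, Slfn2 and Slfn5 by 1.00 and 2.57, and Trim25, an activator of the sensor RIG-I, by 0.70. Slfn5 was at 2.56 in the low class and 1.24 in the middle class. Of 43 Trim genes 7 were called, all higher, against 4.3% of all genes called higher. For antigen presentation 2 of 27 genes were called, B2m and H2-D1 of MHC class I, at 0.75 and 0.55. That count is near the share of all genes (6.96% called, 4.3% higher). The median of that list was 0.11 with 11 estimates lower, and it was below 0 with the enterocyte covariate (-0.045) and without WT3 (-0.022) or KO3 (-0.029). Leaving out single libraries kept the median of the interferon list between 0.91 and 1.26 and the number with an unadjusted p under 0.05 between 37 and 46, while the number called ran from 1 (without WT2, KO2 or KO3) to 37. Markers of T and natural killer cells, at 108, 82.01, 28.8 and 151 CPM in WT1 to WT4 and 70.9, 96.4, 501 and 269 CPM in KO1 to KO4, overlapped between genotypes, and their part was not tested.

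The letters of the interferon-stimulated response element, searched on both strands as the block GAAA followed by any 2 bases and a second GAAA, stood in the RefSeq promoters of 14 of the 25 called list genes that the promoter table holds. Over the whole list, called or not, it stood in 25 of 45 promoters, so called members did not stand out from their list. Among all 27025 promoters 3.49% hold this pattern, and 33 of the 427 promoters of all called higher genes (7.73%) do. The promoters of 3 called genes with 2 matches each are shown with the matches in capitals (GRCm38.p6), Oas1g at chr5:120887564-120887863 on the minus strand, Ifit1 at chr19:34640639-34640938 and Ifit3 at chr19:34583279-34583578, both on the plus strand.

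Oas1g: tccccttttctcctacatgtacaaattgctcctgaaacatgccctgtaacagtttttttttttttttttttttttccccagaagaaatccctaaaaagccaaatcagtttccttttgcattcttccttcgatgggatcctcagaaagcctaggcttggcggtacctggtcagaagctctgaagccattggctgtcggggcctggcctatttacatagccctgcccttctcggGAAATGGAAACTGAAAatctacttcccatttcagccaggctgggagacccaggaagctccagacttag
Ifit1: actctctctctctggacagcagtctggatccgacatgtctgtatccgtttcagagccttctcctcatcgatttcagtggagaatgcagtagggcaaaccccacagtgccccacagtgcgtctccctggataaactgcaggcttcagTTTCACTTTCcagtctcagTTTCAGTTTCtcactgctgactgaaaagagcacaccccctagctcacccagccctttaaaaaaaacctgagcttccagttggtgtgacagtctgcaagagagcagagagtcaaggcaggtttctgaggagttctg
Ifit3: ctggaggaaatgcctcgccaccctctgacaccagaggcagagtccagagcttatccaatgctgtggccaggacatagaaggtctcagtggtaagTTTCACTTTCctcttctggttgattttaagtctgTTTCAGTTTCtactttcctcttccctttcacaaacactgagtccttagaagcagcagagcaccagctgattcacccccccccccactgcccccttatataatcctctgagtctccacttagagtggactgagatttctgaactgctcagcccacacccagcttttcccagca

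Each holds 2 matches, which 0.252% of promoters reach, and in Oas1g the 2 overlap and share the middle block. Ifit1 was at 20.2, 9.80, 9.43 and 11.3 CPM in WT1 to WT4 and 29.9, 44.3, 56.1 and 37.5 CPM in KO1 to KO4, and Ifit3 at 4.57, 1.70, 2.00 and 3.22 CPM in WT1 to WT4 and 11.3, 15.6, 12.1 and 11.03 CPM in KO1 to KO4. Both lie in 1 of 7 runs of 3 or more changed genes of the same direction with gaps of at most 1 Mb, all 7 higher. On chr19:34492318-34650009, 6 of 7 tested genes were changed, namely Lipa, the lysosomal acid lipase, and the Ifit genes Ifit1, Ifit3, Ifit3b, Ifit1bl1 and Ifit1bl2. On chr5:120730333-120907521 it was 5 of 6, Oas1a, Oas1b, Oas1g, Oas2 and Oas3. Near-identical copies can share reads in both runs, so values of single copies are uncertain. Shorter runs were Trim34a, Trim30a and Gm16464 (3 of 6 tested genes) on chromosome 7, the MHC genes H2-T24, H2-Bl and Gm7030 (3 of 8) on chromosome 17, and Fbxl21, AC132901.1 and Tgfbi (3 of 4) on chromosome 13. Runs on chromosome 15 (Mroh6, Plec, Gpt, Apol9a and Apol9b, 5 of 56) and chromosome 17 (Angptl4, Gm15331 and Btnl6, 3 of 39) span many genes that were not changed.

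**Figure D4:**
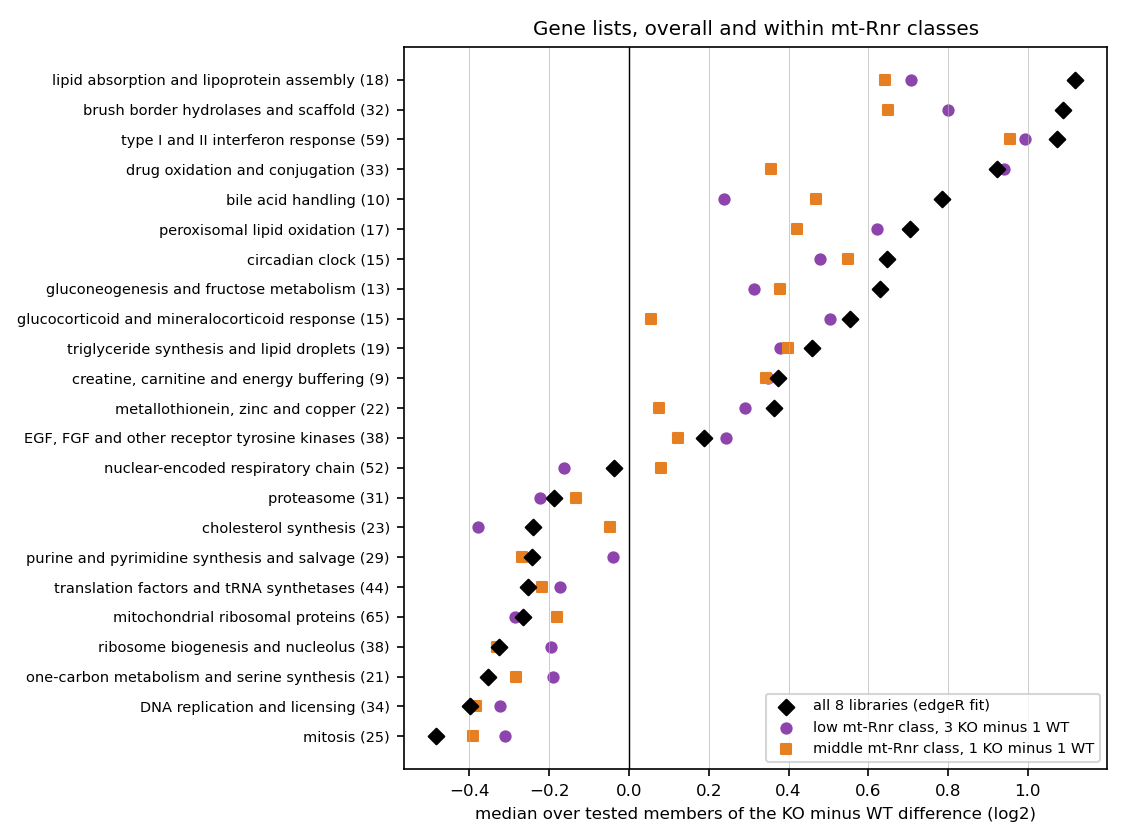
Median KO minus WT difference (log2, horizontal axis) over the tested members of 23 gene lists (rows, number of tested members in parentheses). Diamonds give the edgeR fit of all 8 libraries, circles the low mt-Rnr class and squares the middle class. Interferon genes hold their median in both classes, and the glucocorticoid list is near 0 in the middle class.

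In growth factor signalling, 7 of 38 genes of receptor tyrosine kinase pathways were called, all higher, against 4.3% of all genes. The median of the list was 0.19, with 10 estimates lower. Several of the called genes encode inhibitors that the ERK pathway induces against itself. Dusp6, the phosphatase of ERK, was at 14.6, 7.82, 7.68 and 20.2 CPM in WT1 to WT4 and 41.6, 48.6, 47.5 and 81.3 CPM in KO1 to KO4, with 1.64 and 2.00 in the classes. Errfi1, which blocks the EGF receptor kinase, was at 16.7, 14.9, 12.95 and 20.7 CPM in WT1 to WT4 and 33.1, 33.2, 43.2 and 34.6 CPM in KO1 to KO4. Neither overlapped between genotypes. Dusp4, a nuclear ERK phosphatase, rose by 0.76, the receptor Epha2 by 0.95, the EGF receptor ligand Tgfa by 0.60 and the Kit ligand Kitl by 0.45. Cbl, the ubiquitin ligase for activated receptors, rose by 0.68, with 0.87 in the low class and 0.21 in the middle class. Igf2, the imprinted growth factor, was at 1.79, 1.79, 2.24 and 3.94 CPM in WT1 to WT4 and 10.8, 11.5, 11.3 and 11.3 CPM in KO1 to KO4. The KO libraries lay within 10.8 to 11.5 CPM, far above WT, and the log2 fold change of 2.19 was 1.81 with the enterocyte covariate. Insr, its substrate adaptor Irs2 and Foxo3 rose by 0.56, 0.65 and 0.42, and Igfbp4, an IGF-binding protein, fell by 0.97. Mdm2 and Tnfrsf10b, targets of p53, rose by 0.43 and 0.53. In the list of p53 targets, DNA damage and apoptosis 3 of 41 genes were called higher (4.3% of all genes) and 1 lower (2.66%). Its median was 0.12 with 18 estimates lower, and -0.018 with the enterocyte covariate.

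Other receptors and signal regulators were also called. The adenosine receptors went in opposite directions, since Adora2b, which raises cAMP, was at 3.58, 1.51, 0.720 and 2.81 CPM in WT1 to WT4 and 5.39, 6.95, 8.48 and 11.9 CPM in KO1 to KO4, and Adora1, which lowers it, was at 5.28, 5.00, 7.60 and 2.41 CPM in WT1 to WT4 and 2.43, 0.916, 1.06 and 0.827 CPM in KO1 to KO4. For Adora1 the ranges touched, as KO1 and WT4 were alike. The adenylate cyclase Adcy9, the zinc-sensing receptor Gpr39 and the lysophosphatidic acid receptor Lpar1 rose by 0.85, 0.71 and 0.81. In the BMP, TGF-beta and Hedgehog list, 4 of 26 genes were called, all higher, against 4.3% of all genes called higher. They were the receptor Acvr2a (0.59), the inhibitor Smad7 (0.73), the procollagen protease Bmp1 (1.98) and Tgfa. Tgfa stood in this list although it is the EGF receptor ligand given above. The cytokine receptor chains Il4ra, Il13ra1, Il10rb and Il22ra1 rose by 0.52, 0.66, 0.57 and 0.94. Death receptor Tnfrsf21 was at 7.61, 5.28, 7.44 and 8.52 CPM in WT1 to WT4 and 13.5, 13.4, 14.4 and 33.4 CPM in KO1 to KO4, with KO4 far above the other KO libraries (log2 fold change 1.37). In the Wnt list 2 of 32 genes were called, near the share of all genes (6.96% called, 2.66% lower). Both were lower and are stem cell markers, the stem cell receptor Lgr5 at -0.74 and the stem cell factor Ascl2 at -0.67. Of the 32 estimates 12 were higher, and the list median of -0.20 was 0.064 with the enterocyte covariate. The intestinal transcription factor Hnf4g rose by 0.91.

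All 15 tested clock genes had higher estimates, at a median of 0.65 (0.52 with the enterocyte covariate). The median was 0.48 in the low class and 0.55 in the middle class. Of the 15 genes 4 were called, all higher, against 4.3% of all genes. Per2, a repressor of the clock, was at 9.13, 6.41, 8.16 and 8.76 CPM in WT1 to WT4 and 34.1, 33.1, 35.4 and 10.4 CPM in KO1 to KO4. KO1, KO2 and KO3 were close to each other, while KO4 lay just above WT1, so the difference of 1.88 in the low class was 0.24 in the middle class. Cry1, its partner, was at 9.76, 6.98, 7.44 and 8.12 CPM in WT1 to WT4 and 21.9, 17.1, 29.3 and 14.1 CPM in KO1 to KO4, also lowest in KO4 among the KO libraries, with 1.17 and 0.78 in the classes. Clock and its paralog Npas2 rose by 0.44 and 0.89. In the glucocorticoid list 3 of 15 genes were called, all higher, against 4.3% of all genes. The median of 0.55 was 0.50 in the low class and 0.055 in the middle class. Sgk1, a kinase that glucocorticoids and mineralocorticoids induce, was at 13.7, 16.6, 6.00 and 28.8 CPM in WT1 to WT4 and 68.5, 77.5, 46.3 and 37.6 CPM in KO1 to KO4 and Tsc22d3, the glucocorticoid-induced leucine zipper, at 33.04, 37.9, 30.3 and 29.02 CPM in WT1 to WT4 and 64.7, 66.7, 73.8 and 34.3 CPM in KO1 to KO4. Their differences were 2.18 and 1.04 in the low class and 0.38 and 0.24 in the middle class. The co-chaperone Dnaja1 went from 1.13 to 0.077 and Epas1, the hypoxia-inducible factor 2 alpha, from 3.02 to 0.38. Epas1 was at 4.57, 5.75, 5.52 and 10.5 CPM in WT1 to WT4 and 43.3, 11.2, 115 and 13.7 CPM in KO1 to KO4, highest in KO1 and KO3. Of the 240 changed genes 9 kept under 25% of their difference in the middle class and none in the low class. KO4 was also the KO library with the highest mt-Rnr level and the highest tuft cell marker sum, and their part in its values was not tested.

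Genes of growth and division were lower by small amounts in many members. All 34 tested DNA replication genes had lower estimates, at a median of -0.40, and 4 were called, against 2.66% of all genes called lower. These were Gins1 (-0.73), Gins2 (-0.79), Gins4 (-0.46) of the replicative helicase and the clamp loader subunit Rfc2 (-0.51). For mitosis 24 of 25 estimates were lower, at a median of -0.48, and 6 were called, all lower, against 2.66% of all genes. Ccnb2, a cyclin of mitotic entry, was at 123, 125, 122 and 121 CPM in WT1 to WT4 and 84.9, 86.3, 60.2 and 92.1 CPM in KO1 to KO4, with KO3 the lowest. Cdc20, Ube2c, Plk1 and Birc5 fell by 0.61, 0.68, 0.53 and 0.74. With the enterocyte covariate the medians were -0.031 for replication and -0.12 for mitosis. Ribosome biogenesis was lower for 36 of 38 genes. Only Nhp2, a core protein of H/ACA particles, was called, at -0.72, near the 2.66% of all genes called lower. The median of -0.33 for ribosome biogenesis was -0.028 with the enterocyte covariate, where 18 of 38 were higher. Mitochondrial ribosomal proteins had 62 of 65 lower estimates and 9 calls, all lower, against 2.66% of all genes. Among those called were Mrps35 (-0.40), Mrps9 (-0.44), Mrpl2 (-0.48), Mrpl28 (-0.53) and Mrpl41 (-0.42). The median of -0.27 over the 65 genes was -0.18 with the covariate. The translation elongation factors Eef1b2, Eef1d and Eef1g fell by 0.60, 0.58 and 0.48, and the median of the 44 translation genes went from -0.25 to -0.0073 with the covariate. No proteasome gene of 31 was called by edgeR, 6 were called by DESeq2 and 14 had an unadjusted p under 0.05, with 30 lower at a median of -0.19.

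**Figure D5:**
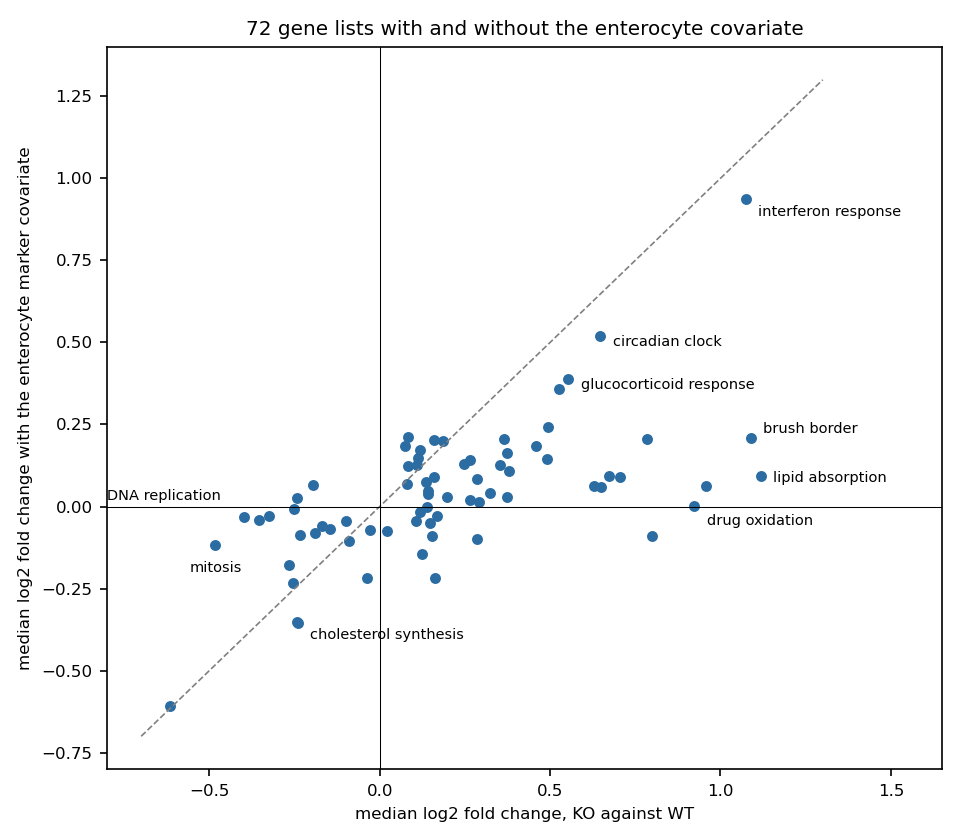
Median log2 fold change of 72 gene lists in the edgeR fit of all 8 libraries (horizontal axis) and with the mean log2 CPM of the enterocyte markers as a covariate (vertical axis). Each point is a list, and the dashed line marks equal medians. The interferon list stays near the line at 1.07 and 0.94, while the brush border list moves from 1.09 to 0.21 and the lipid absorption list from 1.12 to 0.094.

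Genes lower by 2-fold or more came from varied functions. Rad9a, a subunit of a DNA damage checkpoint clamp, was at 4.12, 3.87, 5.12 and 4.26 CPM in WT1 to WT4 and 0.317, 0.840, 0.742 and 0.0919 CPM in KO1 to KO4, and was called lower (adjusted p = 0.0234). KO1 and KO4 were at or under the floor of 3 counts, so no fold is given. Psrc1, a spindle protein, was at 10.9, 9.80, 11.03 and 10.6 CPM in WT1 to WT4 and 4.86, 5.04, 3.61 and 5.51 CPM in KO1 to KO4 and Nek2, a centrosome kinase, at 8.69, 8.58, 6.08 and 17.2 CPM in WT1 to WT4 and 4.33, 1.91, 1.27 and 2.30 CPM in KO1 to KO4. Pla2g5, a secreted phospholipase, was at 23.3, 22.3, 46.6 and 25.5 CPM in WT1 to WT4 and 12.7, 9.85, 5.51 and 8.27 CPM in KO1 to KO4. Reg3g, the lectin that kills Gram-positive bacteria, was the most abundant of the 46 changed genes that were lower, at 2466, 1686, 3037 and 2808 CPM in WT1 to WT4 and 1142, 993, 1289.8 and 429 CPM in KO1 to KO4 (log2 fold change -1.38, adjusted p = 0.0460). In each of these genes every KO library was below every WT library. Reg3g was lowest in KO4, and its difference was -1.12 in the low class and -2.71 in the middle class. Agt, the angiotensin precursor, was at 4.92, 2.83, 4.96 and 5.47 CPM in WT1 to WT4 and 1.90, 2.14, 1.06 and 1.655 CPM in KO1 to KO4 and Casp12, a caspase of the endoplasmic reticulum, at 3.85, 2.92, 3.28 and 3.14 CPM in WT1 to WT4 and 0.317, 0.993, 0.954 and 1.47 CPM in KO1 to KO4. Thpo, the hormone thrombopoietin, Rdh12, a retinal reductase, Asrgl1, an asparaginase, and Syne4, a linker of nucleus and kinesin, fell by 1.02, 1.47, 1.22 and 1.40. The peroxiredoxin Prdx4 fell by 0.51 and the kinase Bckdk, which restrains branched-chain amino acid breakdown, by 0.50. For Bckdk the difference was -0.57 in the low class and -0.14 in the middle class. Lamb2, a laminin chain, was the 1 changed gene with opposite signs in the classes, -1.53 and 0.038. Among higher genes of other functions, the giant scaffold Ahnak was at 107, 78.5, 79.2 and 102 CPM in WT1 to WT4 and 163, 202, 224 and 174 CPM in KO1 to KO4, the cytolinker Plec at 294, 195, 167 and 234 CPM in WT1 to WT4 and 374, 520.1, 547 and 376 CPM in KO1 to KO4 and Exph5, a Rab27 effector, at 18.2, 20.2, 25.4 and 24.5 CPM in WT1 to WT4 and 46.8, 48.6, 58.96 and 66.9 CPM in KO1 to KO4, all without overlap.

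Of 867 tested non-coding genes outside pseudogenes 30 were called, against 6.96% of all genes, 15 higher (4.3% of all genes) and 15 lower (2.66%). The snoRNA host genes, whose introns hold small nucleolar RNAs, had 10 of 11 lower estimates at a median of -0.53 (-0.58 and -0.10 in the classes, -0.44 with the enterocyte covariate). Snhg8 was at 36.98, 28.7, 38.2 and 26.4 CPM in WT1 to WT4 and 20.9, 18.8, 20.1 and 19.9 CPM in KO1 to KO4 and Snhg12 fell by 0.79. A further pair of snoRNA host transcripts, Zfas1 and Epb41l4aos, fell by 0.61 and 0.81. Gene 2410006H16Rik was at 43.97, 44.5, 43.5 and 43.5 CPM in WT1 to WT4 and 29.4, 25.04, 18.9 and 29.96 CPM in KO1 to KO4, with WT libraries almost equal. Gm15545 and 3110045C21Rik fell by 0.78 and 1.22. Among those higher, Igf2os was at 0.0895, 0, 0.0800 and 0.402 CPM in WT1 to WT4 and 1.90, 1.68, 2.12 and 2.48 CPM in KO1 to KO4. It overlaps Igf2 on the opposite strand, and whether counting used strand is not given in the sources used here, so reads of Igf2 and Igf2os cannot be told apart. It was at or under the floor of 3 counts in WT1, WT2 and WT3, so no fold is given. Gm43691, AC132901.1 and 9630028B13Rik were at 0.179 to 0.482, 0.160 to 0.482 and 0.0800 to 0.482 CPM in WT and 0.993 to 1.75, 1.15 to 2.97 and 1.01 to 2.23 CPM in KO. Processed pseudogenes were called lower in 26 of 585 cases, against 2.66% of all genes, and higher in 2, against 4.3%. Rpl35a-ps6 led the pseudogenes called lower, at 108, 147, 92.9 and 108 CPM in WT1 to WT4 and 41.9, 13.7, 12.4 and 27.7 CPM in KO1 to KO4. Their reads can come from a near-identical parent gene.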

How the data were processed

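RNA-seq read counts per gene were deposited by the authors for WT and KO crypts in one table of raw counts, which they made with HISAT2 2.0.5 and featureCounts 1.5.0-p3, as the submitters' processing notes name them. The strand setting and the genome build are not given in the sources used here. Of the table's gene positions 95.2% matched GENCODE M21 on GRCm38. The organoid libraries of the series were not used here. Groups followed the genotype labels. Genes with too few counts were removed with filterByExpr, libraries were scaled by TMM, and KO was compared with WT by edgeR 4.0.16's quasi-likelihood test (R 4.3.3) with Benjamini-Hochberg adjustment over 13427 genes. The standard error of a log2 fold change was taken as its size over the root of the F statistic. The biological coefficient of variation was 0.231. CPM are TMM-scaled, and differences within classes are in log2 CPM with a prior count of 2. Classes were set at under 100 CPM and above 2000 CPM of mt-Rnr1 plus mt-Rnr2.

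Alternatives were DESeq2 1.42.0 size factors and Wald test, library size alone, no filter, 10 counts in every library, a replicate block, the class as a covariate, omission of the high class, removal of the mt-Rnr genes, and each library left out. A covariate of enterocyte markers was chosen after the data were seen. The code was tested on simulated counts. The members and lists were chosen with earlier results of these data known. Named genes are Cul4b, the 15 most abundant and the 10 with the smallest p in each direction among changed genes that did not overlap and kept at least 50% of their difference in both classes, up to 5 called genes of each list or symbol family (or its 2 most abundant where none was called), up to 10 called non-coding genes, called genes with opposite signs in the classes and members of runs of changed genes. Promoters are from RefSeq, and 9614 of the tested genes had an entry. Floors cover counting error only. Some called genes are not reported here.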

Additional observations from a re-analysis of the deposited data

Results flagged for a closer look

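Of 432 groups of 4 libraries examined, 27 held a library far from the other 3 by Dixon's gap, where chance alone gives about 1 in 20. KO4 stood apart most clearly. Its mt-Rnr1 and mt-Rnr2 were at 405.9 and 701.2 CPM, against at most 6.999 and 20.6 CPM in the other KO libraries. Its tuft cell markers summed to 352.1 CPM, Per2 was low at 10.39 CPM, Dnaja1 was low at 211.9 CPM, where the others had at least 322 CPM, and the receptor Tnfrsf21 was high at 33.37 CPM.

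KO1 had Cyp1a1 at 57.61 CPM and Adora1 at 2.431 CPM, both above the other KO libraries. KO3 was above them for Errfi1 at 43.16 CPM and Gm7030 at 4.242 CPM, and below them for Zfp503 at 9.226 CPM.

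Among the WT libraries, WT1 was high for Oas1g at 17.46 CPM, for Ifit1 at 20.24 CPM and for the summed myeloid cell markers at 119.3 CPM, and low for Clock at 76.38 CPM. WT2 was high for Mt1 at 173.7 CPM. WT3 was low for Slfn5 at 1.599 CPM, Trim30a at 1.119 CPM and Trim34a at 2.639 CPM, and high for Pla2g5 at 46.61 CPM. WT4 lay on the KO side of its group for each gene in which it stood apart, with Pfkfb2 at 25.97 CPM, Slc22a5 at 44.22 CPM and Tlr3 at 32.48 CPM above the other WT libraries, and with Bckdk at 65.52 CPM, Mrpl2 at 83.37 CPM, Eef1d at 183.3 CPM and Rfc2 at 63.51 CPM below them.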

How the results depend on the processing

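The number of genes past the threshold was the value most sensitive to the processing, and the direction of single genes was not. Without a filter on low counts 527 genes were changed and 1479 called, and with DESeq2's Wald test 504 and 2490. Changed and called genes numbered 2 and 2 with the class as a covariate, 1 and 1 without the high class, and 1 and 1 with the enterocyte marker covariate. Leaving out single libraries gave 2 to 643 changed genes and 2 to 2468 called ones. With the replicate number as a block 4 genes were changed and 4 called. Deviations of libraries with the same number correlated at -0.044, 0.190, -0.395 and 0.434 for numbers 1 to 4. Those of libraries with different numbers correlated at -0.474 to 0.486, so the values cannot decide whether the numbers pair the libraries. With DESeq2 size factors, library size alone, at least 10 counts in every library or without the mt-Rnr genes the changed genes numbered 212, 192, 229 and 241. The 240 changed genes kept their direction in each setting, of which the 10-count filter tested 192, and each kept an unadjusted p under 0.05 whichever library was left out. Adh1, which was not called, changed sign with the enterocyte covariate, to -0.22, and mt-Rnr1 and mt-Rnr2, which set the classes, did so with the class as a covariate, to 0.20 and 0.15. The cause of these shifts was not tested. At these depths genes near 0.3 CPM rest on a few reads, and their fold changes carry the widest errors.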

Other observations

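Ubiquitin-specific proteases had 5 called of 45, all higher, against 4.3% of all genes called higher, although their median log2 fold change was 0.02. Beside Usp18 these were Usp45, Usp40, Usp33 and Usp25, at 0.56, 0.47, 0.38 and 0.45 on the log2 scale, the scale of the values below. Among other ubiquitin ligases 5 of 32 were called, all higher, against 4.3% of all genes, including Itch (0.48) and Trim56 (0.66). Trim56 was 0.82 in the low class and 0.23 in the middle class.

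Lysosomal and vesicle genes had 3 calls of 43, all higher, near the share of all genes (6.96% called, 4.3% higher), namely the lipase Lipa, the autophagy protein Atg9a (0.69) and the cholesterol transporter Npc1 (0.66). Chromatin enzymes had 3 of 46, also near that share, the DNA dioxygenase Tet2 (0.51), the histone methyltransferase Kmt2c (0.61) and the demethylase Kdm6b (0.54). Kmt2c was 0.88 in the low class and 0.14 in the middle class. Zinc finger genes with Zfp symbols had 1 higher and 4 lower calls among 312 (4.3% and 2.66% of all genes), with Zfp503 the most significant at -0.94. Genes with Tmem symbols were split evenly, with 7 higher and 7 lower calls of 166, against 4.3% and 2.66% of all genes. Angptl4, an inhibitor of lipoprotein lipase, was at 4.66, 2.17, 2.80 and 5.71 CPM in WT1 to WT4 and 10.6, 13.4, 9.76 and 13.97 CPM in KO1 to KO4, without overlap.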
